A study of Oryctolagus cuniculus with 49 samples.

Results

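Genes of cell division and mitosis were followed in rabbit eyes, in the tissue of iris and ciliary body, with and without lens surgery. They are the 359 gene symbols, of 12949 measured, whose printed biological process text contains "cell division" or "mitotic". Symbols beginning with MCM, GINS, PSM, RPS, RPL or EIF were left out, which removed 19 symbols. The text "cell division" stands with 101 members, and the other 258 match through "mitotic". The rule reads the process text and no expression value, though the table lists a transcript by its FPKM, as described further on. The set is broad, since the process texts also name genes with many other jobs, such as endothelins, small GTPases and filamin A.

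The rabbits were New Zealand white. Operated eyes had the lens removed and an intraocular lens inserted, and unoperated eyes had neither. The 26 libraries, each of iris together with ciliary body, fall into 5 groups. The 14 without surgery comprised 7 aged 5 weeks and 7 aged 6 months. The 12 with surgery comprised 3 aged 5 weeks, 3 aged 6.5 weeks and 6 aged 6 months. How long after the operation the tissue was taken is not stated by the labels, and no unoperated library was labelled 6.5 weeks. The series asks how the response of the front of the eye to this surgery changes with age. All values are FPKM, the authors' transcript level scaled for transcript length and for the mapped fragments of each library.

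Cell division is driven by cyclin-dependent kinases, which are switched on by cyclins and opposed by inhibitor proteins. In mitosis the kinase CDK1 with a B cyclin starts chromosome condensation and spindle assembly, kinetochores tie chromosomes to the spindle, and a checkpoint holds the cell until all are attached. The anaphase promoting complex then marks cyclin B and securin for destruction, sister chromatids part, and cytokinesis divides the cell. Transcripts of the mitotic machinery are made mainly in the later phases of the cycle, so they are low in tissue whose cells rest. The adult iris and ciliary body are largely made of resting stromal, epithelial, muscle and vessel cells.

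Of the 5 genes taken as markers of dividing cells, CDK1 and UBE2C are members. CCNB1, CCNB2 and CDC20 were measured but are not members. CCNB1, CDC20 and the proliferation antigen gene MKI67 carry no process text, as is true of 56.2% of the 16725 listed transcripts. CCNB2 and the topoisomerase gene TOP2A carry texts that contain neither phrase. Of the members, 14 are known by a locus number alone.

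The table lists a transcript where it exceeded 1 FPKM in every library of at least 1 of 4 groups, with operated juveniles of both ages counted as 1 group. By this measure 335 members were listed through an unoperated group. The other 24 members were listed through operated groups alone, so the listing itself favoured higher levels in operated eyes. Of these 24, 19 were called higher at 6 months and 9 in juveniles, and counts over all members include them. The main counts are therefore also given for the 335 alone, beside the 12398 of all genes listed through an unoperated group. Members are described here as they stand in bulk tissue, where more dividing cells and more RNA per cell cannot be told apart. The labels give each library a number but do not say that each is a separate animal, and p-values measure the spread between these libraries.

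Sums of FPKM ranged from 412936 to 504202 over the libraries, and read depth is unknown. Crystallin RNA marked 8 libraries with over 1000 FPKM of CRYAA, a lens gene, of which 4 were unoperated at 5 weeks. Differences are given on the log2(FPKM + 0.5) scale, ± the standard error of the limma fit, and folds are on the same scale, which understates changes of low genes. A gene is said to have risen or fallen where its adjusted p, over all 12949 genes, was under 0.05.

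At 6 months the core mitotic genes were low in unoperated and higher in operated eyes. CDK1, the ubiquitin-conjugating enzyme UBE2C, both B cyclins and the kinase PLK1, all listed through unoperated eyes, rose severalfold after surgery. The cohesin subunits STAG2 and SMC3 fell, while RAD21, another subunit, was not called (-0.10 ± 0.09). In all, 94 members (26.2%) rose and 87 (24.2%) fell, while 16.0% of all genes rose and 30.1% fell. By 2-fold or more 41 members rose and 4 fell, against 4.60% and 2.44% of all genes. The median member changed by -0.03, and the median of all genes by -0.11. Among the 335 members listed through an unoperated group, 75 rose (22.4%) and 87 fell, against 14.4% and 31.3% of all genes so listed. Of these 335, 29 rose and 4 fell by 2-fold or more (8.66% and 1.19%), against 3.16% and 2.54%. Every operated library lay above every unoperated one for 63 members and below for 35, which held for 8.15% and 12.8% of all genes. Of the 63, 48 were among the 335.

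Operated 6-month libraries had larger FPKM sums than unoperated ones, and the counts of small changes moved with the scaling. The median of all genes at 6 months moved from -0.11 to -0.24 with equal sums, to -0.01 with median-ratio scaling and to -0.06 with upper-quartile scaling. The split of members then became 70 higher and 151 lower, 115 and 54, and 101 and 62, in that order. In juveniles the median of all genes was -0.06, and -0.18, -0.02 and -0.04 under these scalings.

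**Figure D1:**
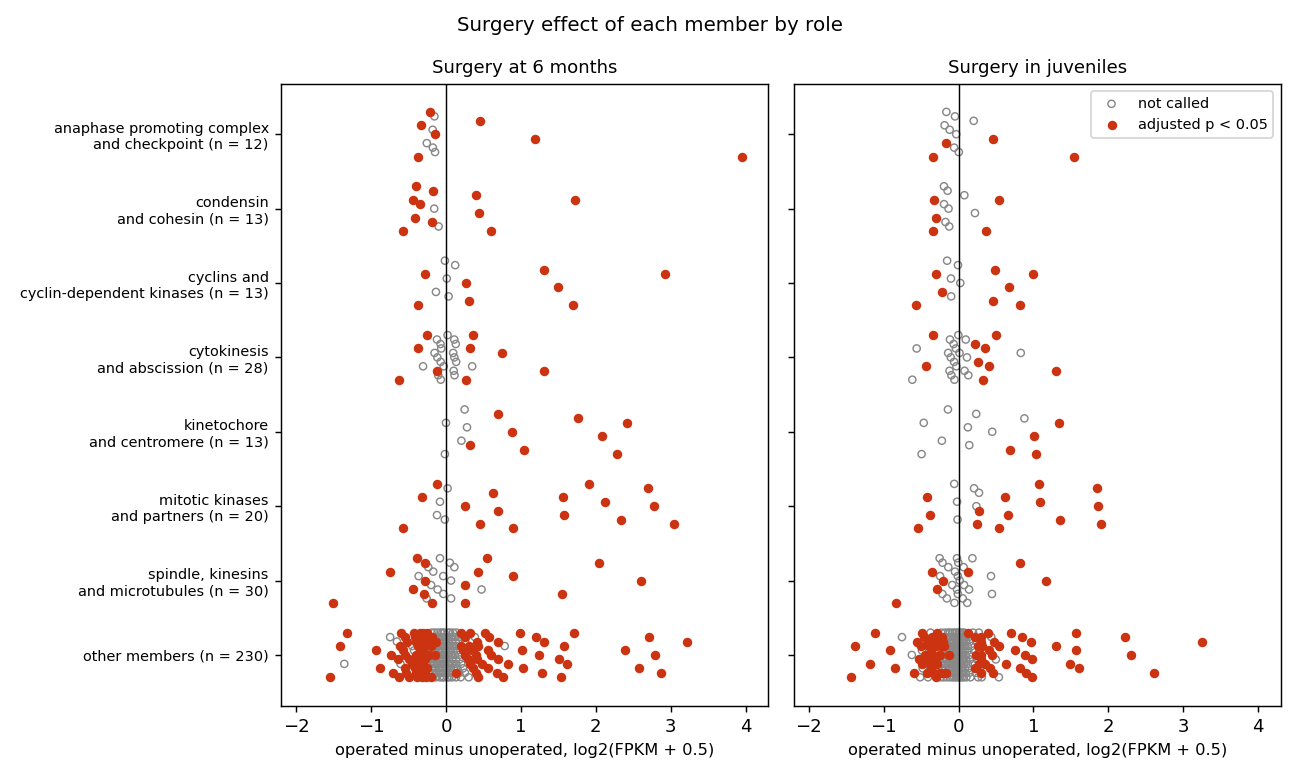
Difference between operated and unoperated eyes for each of the 359 members, by role, at 6 months (left) and in juveniles (right), on the log2(FPKM + 0.5) scale. Filled points have an adjusted p under 0.05. At 6 months UBE2C reaches furthest to the right, at 3.95, and 4 of the 87 falls reach 2-fold.

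Among cyclins, cyclin-dependent kinases and their activators, 6 of 13 members rose at 6 months and 2 fell, and the median was 0.12. These are 46.2% and 15.4%, against 16.0% and 30.1% of all genes. CDK1, the kinase that drives entry into mitosis, lay at 0.68 to 1.35 (median 0.84) FPKM in unoperated and 6.34 to 15.7 (median 10.6) in operated 6-month libraries. In the unoperated 5-week libraries it lay at 3.12 to 6.2 (median 4.39), and 1 operated 5-week eye fell within that range. The 3 operated 5-week eyes read 7.77, 6.16 and 12.8 FPKM, and the 3 operated 6.5-week eyes read 12.16, 10.7 and 7.53. No operated 6-month library overlapped the unoperated ones, and the lowest operated one was more than 4 times the highest unoperated one. CDK1 rose 7.62-fold at 6 months (2.93 ± 0.19, adjusted p = 1.07e-11) and 2-fold in juveniles (1.0 ± 0.19, adjusted p = 0.000175).

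CKS1B and CKS2 are small proteins that bind cyclin-dependent kinases and help them reach their substrates. At 6 months CKS1B lay at 10.2 to 16.8 (median 14.4) FPKM without and 32.9 to 66.1 (median 37.3) with surgery. In juveniles it lay at 12.8 to 16.8 (median 16.3) and 19.1 to 34.6 (median 28.7). Operated and unoperated libraries were apart at both ages. It rose by 1.5 ± 0.14 at 6 months and 0.82 ± 0.14 in juveniles. CKS2 showed the same separation at 6 months, with 6.07 to 8.57 (median 7.71) against 19.2 to 38.6 (median 23.7) FPKM. Its juvenile groups, at 9.53 to 17.03 (median 14.3) and 15.5 to 27.98 (median 23.5), overlapped in part. The rises were 1.69 ± 0.16 and 0.68 ± 0.16.

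CCNF, an F-box protein that marks cell cycle proteins for destruction, was low throughout but showed the same order. Its 6-month levels were 0.23 to 0.6 (median 0.47) FPKM without and 1.11 to 2.74 (median 1.91) with surgery, a rise of 1.31 ± 0.15. The juvenile levels were 1.03 to 1.49 (median 1.36) and 1.29 to 2.71 (median 1.9). The juvenile rise of 0.46 ± 0.15 was lost without the operated 5-week replicate 3 (0.35, adjusted p = 0.0787). CDK2, the kinase of the entry into DNA replication, fell in juveniles by 0.57 ± 0.11. CDK13, which acts in transcription, fell at 6 months by 0.38 ± 0.08. The G1 cyclin CCND2 rose at 6 months by 0.27 ± 0.09.

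**Figure D2:**
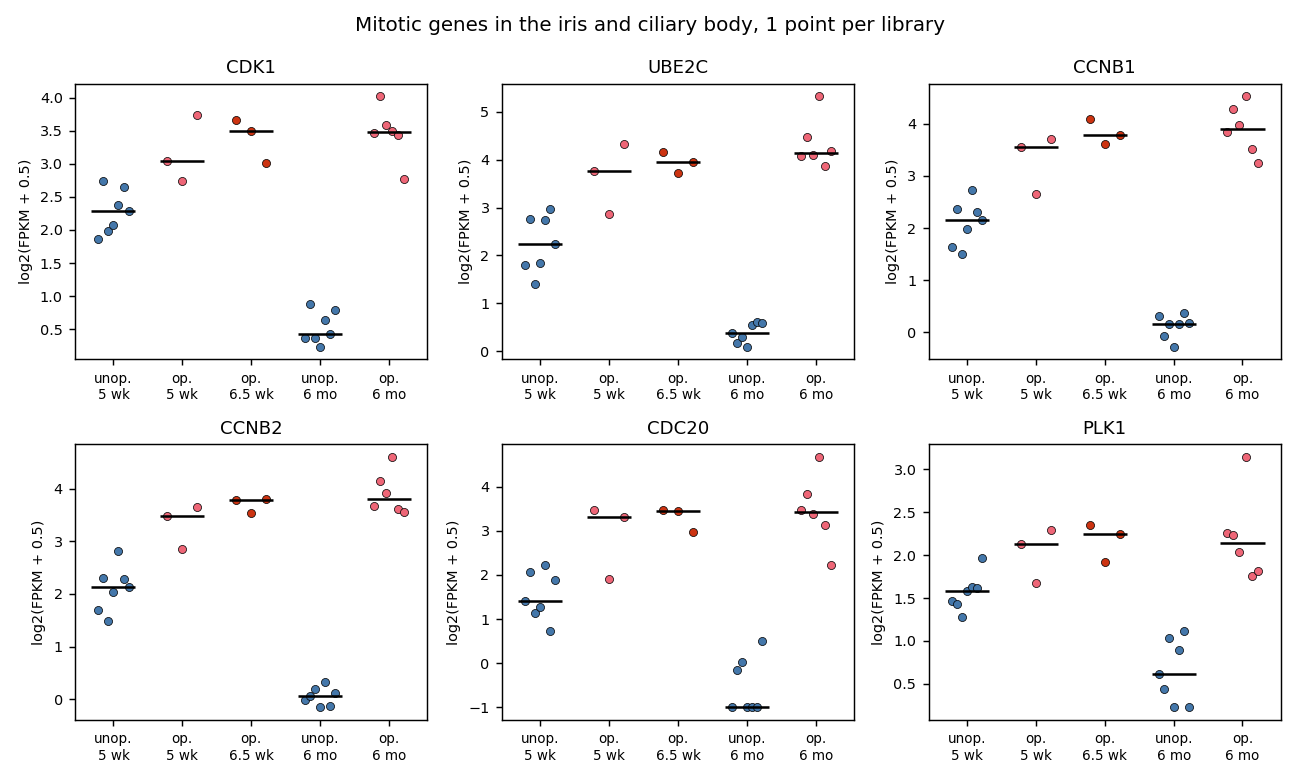
Levels of CDK1, UBE2C, CCNB1, CCNB2, CDC20 and PLK1 on the log2(FPKM + 0.5) scale, 1 point per library and a bar at the group median, for unoperated (blue) and operated (red) eyes at each age. In each panel the unoperated 6-month libraries have the lowest group median, 0.84 FPKM for CDK1 and 0.8 for UBE2C.

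UBE2C is the enzyme that supplies ubiquitin to the anaphase promoting complex. Its levels were 0.57 to 1.03 (median 0.8) FPKM in unoperated and 14.2 to 39.6 (median 17.1) in operated 6-month libraries. At 5 weeks unoperated libraries held 2.14 to 7.31 (median 4.21). The operated 5-week eyes read 13.1, 6.79 and 19.6 FPKM, and the operated 6.5-week eyes 17.4, 12.6 and 15.02. The rise of 15.5-fold at 6 months (3.95 ± 0.25, adjusted p = 1.17e-11) was the largest of any member. In juveniles UBE2C rose 2.92-fold (1.55 ± 0.25), and the operated 5-week replicate 2, at 6.79 FPKM, lay within the unoperated range.

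Of 12 members with a role in the complex or the spindle checkpoint, 3 rose and 4 fell at 6 months, with a median of -0.17. These are 25.0% and 33.3%, against 16.0% and 30.1% of all genes. MAD2L1, a checkpoint protein that restrains the complex, rose by 1.19 ± 0.15 at 6 months. It lay at 4.98 to 8.38 (median 7.19) FPKM in unoperated and 10.7 to 21.5 (median 16.9) in operated libraries. The groups did not overlap. The third rise was that of FBXO5, another inhibitor of the complex (0.45 ± 0.14).

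The subunit CDC23 fell by 0.22 ± 0.05, with 30.4 to 33.9 FPKM in unoperated and 26.3 to 27.6 in operated libraries. A smaller subunit, ANAPC16, fell by 0.33 ± 0.09, with levels of 33.1 to 39.8 and 22.3 to 35.2. MAD2L1BP, which helps to switch the checkpoint off, fell by 0.38 ± 0.12. In juveniles MAD2L1 rose by 0.46 ± 0.15. That call was lost without the operated 5-week replicate 3 (0.35, adjusted p = 0.0809) and without the operated 6.5-week replicate 1 (0.41, adjusted p = 0.0536).

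CCNB1, CCNB2 and CDC20, outside the rule, were measured beside CDK1 as markers of mitosis. CCNB1, a B cyclin, lay at 0.33 to 0.79 FPKM in unoperated and 9.02 to 22.5 in operated 6-month eyes. The juvenile ranges were 2.35 to 6.11 and 5.75 to 16.4. It rose by 3.77 ± 0.21 and 1.47 ± 0.21. Its sister CCNB2, at 0.4 to 0.76 and 11.3 to 23.8 FPKM at 6 months, rose by 3.86 ± 0.19, and by 1.41 ± 0.19 in juveniles. CDC20, which activates the anaphase promoting complex, was listed at 0 in 4 of 7 unoperated 6-month libraries and reached 4.15 to 25.1 FPKM in operated ones. In juveniles CCNB2 lay at 2.31 to 6.59 FPKM without and 6.74 to 13.4 with surgery. The juvenile groups of CDC20, at 1.15 to 4.15 and 3.26 to 10.6 FPKM, overlapped.

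Mitotic kinases carry out and police the steps of division. Of 20 members on the list of mitotic kinases and their partners, 13 rose and 3 fell at 6 months, with a median of 0.66. In juveniles 11 rose and 3 fell, with a median of 0.27. Of all genes 16.0% rose and 30.1% fell at 6 months, and 16.5% and 20.8% in juveniles. Of the 13 rises at 6 months, 7 were of genes listed through operated groups alone, namely AURKA, AURKB, BUB1, BUB1B, CHEK2, NEK2 and TTK. Among the 13 kinases and partners listed through an unoperated group 6 rose and 3 fell at 6 months. BUB1, a checkpoint kinase, lay at 0.08 to 0.34 (median 0.21) FPKM in unoperated and 1.71 to 4.35 (median 2.42) in operated 6-month libraries. In juveniles its levels were 0.59 to 1.14 (median 0.83) and 1.48 to 3.25 (median 2.23). Neither pair of groups overlapped. It rose by 2.12 ± 0.17 at 6 months and 1.07 ± 0.17 in juveniles.

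BUB1B, its checkpoint partner, lay at 0 to 0.23 (median 0.06) FPKM in unoperated 6-month libraries, 1 of them listed at 0. Operated 6-month libraries held 2.23 to 7.09 (median 2.77) FPKM. At 5 weeks unoperated eyes held 0.38 to 1.77 (median 0.96), against 1.94 to 4.63 (median 2.44) in operated juveniles. The 6-month rise was 2.70 ± 0.23 and the juvenile rise 1.09 ± 0.23.

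The aurora kinases were low in unoperated eyes. AURKA, which works at the spindle poles, did not exceed 0.44 FPKM in unoperated 6-month libraries or 1.18 FPKM in unoperated 5-week ones. It lay at 2.2 to 5.97 (median 3.29) FPKM in operated 6-month and 1.69 to 4.78 (median 3.15) in operated juvenile libraries, and rose by 2.33 ± 0.27 and 1.90 ± 0.27. AURKB, the kinase of the chromosomal passenger complex, was listed at 0 in 6 of 7 unoperated 6-month libraries and lay at 2.29 to 8.15 (median 3.67) FPKM in operated ones. The centrosome kinase NEK2 was also listed at 0 in 6 of those 7, and in 1 operated 6-month library. The juvenile groups of AURKB overlapped, at 0 to 2.21 FPKM without and 0 to 5.72 with surgery.

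PLK1, a master kinase of mitosis that the table lists through unoperated eyes, rose by 1.56 ± 0.19 at 6 months. PLK4, the kinase of centriole duplication, rose by 0.90 ± 0.13. PLK2, which belongs to the same family but responds to stress and growth signals, rose at both ages, by 1.58 ± 0.18 and 1.85 ± 0.18. It lay at 4.07 to 7.02 (median 5.62) and 13.5 to 21.6 (median 19.2) FPKM at 6 months, and at 3.64 to 6.12 (median 4.57) and 10.4 to 25.9 (median 19.1) in juveniles. STK3, a kinase of the Hippo pathway, rose by less. Its levels were 13.4 to 17.3 and 23.6 to 28.4 FPKM at 6 months and 14.2 to 15.8 and 21.3 to 26.96 in juveniles, with rises of 0.69 ± 0.06 and 0.67 ± 0.06.

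Falls among the kinases and their partners were small. NEK1, a kinase of cilia and DNA repair, fell by 0.57 ± 0.14 at 6 months. ARPP19, which blocks the phosphatase that opposes CDK1, fell by 0.33 ± 0.09. In juveniles the CDK1-restraining kinase WEE1 fell by 0.55 ± 0.09, with no call at 6 months (-0.08 ± 0.09, 95% interval -0.28 to 0.11).

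Kinetochore and centromere genes gave 8 rises and no fall among 13 members at 6 months, with a median of 0.69. Of all genes 16.0% rose and 30.1% fell. Here 8 of the 13 members, and 7 of the 8 rises, were listed through operated groups alone, so the count is no measure of the role. NDC80, which binds spindle microtubules, lay at 0.02 to 0.29 (median 0.15) FPKM in unoperated and 1.78 to 4.6 (median 3.31) in operated 6-month libraries. Juvenile levels were 0.64 to 1.47 (median 1.04) and 1.91 to 3.74 (median 2.63). All operated libraries exceeded all unoperated libraries at each age, but NDC80 was listed through operated groups alone, which favours such a separation. The rises were 2.41 ± 0.19 and 1.01 ± 0.19.

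CDCA8, the borealin subunit of the passenger complex, lay at 0.09 to 0.39 (median 0.15) and 1.69 to 5.28 (median 2.45) FPKM at 6 months. CENPA, the histone variant that marks centromeres, lay at 0.15 to 0.49 (median 0.28) and 1.53 to 4.92 (median 2.71). DSN1, a subunit of the MIS12 complex that joins NDC80 to the centromere, lay at 0.48 to 0.94 (median 0.64) and 1.1 to 2.5 (median 1.94). Their 6-month groups did not overlap, though CDCA8 and CENPA were listed through operated groups alone, which favours such a separation. They rose by 2.28 ± 0.22, 2.08 ± 0.24 and 1.04 ± 0.16, in that order, and by 1.04 ± 0.22, 1.35 ± 0.24 and 0.69 ± 0.16 in juveniles. MIS12, NSL1, CENPC and SKA2 did not pass the test at 6 months.

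Condensin and cohesin are ring complexes built on SMC proteins, the first folding chromosomes for mitosis and the second holding sister chromatids together and shaping resting chromatin. Of 13 members, 4 rose (30.8%) and 7 fell (53.8%) at 6 months, with a median of -0.17, against 16.0% and 30.1% of all genes. The 4 rises were condensin subunits. NCAPG lay at 0.26 to 0.53 (median 0.44) FPKM in unoperated and 1.4 to 3.86 (median 2.77) in operated libraries and rose by 1.72 ± 0.17. NCAPD2, at 3.71 to 4.64 (median 3.94) and 5.65 to 7.82 (median 6.24), rose by 0.60 ± 0.09. The groups were apart for both genes.

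SMC4, a core subunit of condensin, rose by 0.43 ± 0.10, with 10.96 to 14.2 FPKM in unoperated and 14.5 to 20.3 in operated libraries. Its partner SMC2 rose by 0.39 ± 0.13, and 0.34 (adjusted p = 0.0515) without the operated 6-month replicate 4. The falls included the cohesin subunits STAG2 and SMC3 and the cohesin loader NIPBL. STAG2 fell by 0.57 ± 0.12, with 33.9 to 41.1 (median 38.4) FPKM in unoperated and 18.2 to 30.9 (median 27.1) in operated libraries. SMC3 fell by 0.35 ± 0.07, with 37.6 to 44.9 (median 42.3) and 30.2 to 35.1 (median 32.3). No operated library reached the unoperated range of either gene. NIPBL fell by 0.44 ± 0.12 and PDS5B, a cohesin regulator, by 0.42 ± 0.11.

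Of 30 spindle, kinesin and microtubule genes 8 rose and 8 fell at 6 months, with a median of -0.06, where 16.0% of all genes rose and 30.1% fell. The largest rises were those of KIF20A, TPX2 and KIF23. KIF20A, a motor of the central spindle, lay at 0.55 to 1.07 (median 0.91) FPKM in unoperated and 5.57 to 12.98 (median 6.95) in operated 6-month libraries. Its juvenile levels were 1.77 to 3.66 (median 2.57) and 4.13 to 8.36 (median 6.4). Both pairs of groups were apart, and KIF20A rose by 2.60 ± 0.18 and 1.16 ± 0.18. KIF23, another motor of the central spindle, lay at 2.1 to 5.3 and 9.62 to 17.7 at 6 months and rose by 1.55 ± 0.18, and by 0.82 ± 0.18 in juveniles.

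TPX2, which activates AURKA on spindle microtubules, rose at 6 months by 2.04 ± 0.24, with 0.39 to 3.05 (median 2.49) FPKM in unoperated and 6.8 to 13.4 (median 9.1) in operated libraries. In juveniles its groups overlapped, at 4.86 to 6.74 and 5.73 to 11.4, and the difference did not pass (0.45 ± 0.24, adjusted p = 0.158). Among the falls were CCSAP, a centriole and spindle protein (-1.52 at 6 months), and the dynein heavy chain DYNC1H1 (-0.74). KIF3B, a transport kinesin of cilia and axons, fell by 0.39 ± 0.06, with 9.9 to 11.99 FPKM in unoperated and 7.05 to 9.09 in operated libraries.

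Of 28 members with a role in cytokinesis and abscission, 5 rose and 4 fell at 6 months, and 7 rose and 2 fell in juveniles. Of all genes 16.0% rose and 30.1% fell at 6 months, and 16.5% and 20.8% in juveniles. The leading members were abundant small GTPases with many roles in resting cells. RHOB, a stress-responsive member of this class, lay at 50.9 to 68.9 (median 55.2) FPKM in unoperated and 96.2 to 188 (median 143) in operated 6-month libraries. In juveniles it lay at 44.3 to 57.7 (median 49.6) and 114 to 139 (median 123). The separation was complete at each age, and the rises were 1.31 ± 0.10 and 1.30 ± 0.10. ARF6, a GTPase of membrane traffic, rose by 0.75 ± 0.08 and 0.50 ± 0.08, with 17.97 to 22.3 and 28.4 to 41.3 FPKM at 6 months.

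RHOA, which sets up the contractile ring, was the most abundant of them, at 265 to 299 FPKM in unoperated and 316 to 389 in operated 6-month libraries, and rose by 0.32 ± 0.06. BBS4, a ciliary transport protein, fell by 0.63 ± 0.09 at 6 months and 0.44 ± 0.09 in juveniles. Its levels were 12.1 to 13.2 and 6.73 to 10.4 at 6 months. The septin SEPT9 and the sorting nexin SNX33 rose in juveniles alone by the test, by 0.35 ± 0.07 and 0.27 ± 0.08. At 6 months SEPT9 read 0.11 ± 0.07 and SNX33 -0.12 ± 0.08, and the tests of the difference between ages were not passed (adjusted p = 0.254 and 0.128).

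The 230 remaining members hold DNA repair, signalling and arrest genes along with further cell cycle genes. At 6 months 47 of them rose (20.4%) and 59 fell (25.7%), against 16.0% and 30.1% of all genes. PARP3, a DNA break repair enzyme, had the smallest p of all members. It lay at 4.33 to 6.9 (median 6.51) FPKM in unoperated and 33.4 to 69.8 (median 43.7) in operated 6-month libraries, and at 4.89 to 9.99 (median 6.89) and 35.3 to 53.5 (median 43.5) in juveniles. Every operated library was more than 3 times the highest unoperated one of its age. The rises were 6.89-fold and 6.08-fold (2.79 ± 0.16 and 2.60 ± 0.16, adjusted p = 1.24e-12 and 4.81e-12).

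GEM, an inducible GTPase that also acts on the cytoskeleton, rose by 2.71 ± 0.19 and 2.31 ± 0.19. It lay at 4.19 to 6.78 (median 5.69) and 32.6 to 58.5 (median 36.9) FPKM at 6 months and at 4.11 to 6.68 (median 5.24) and 14.2 to 40.5 (median 29.4) in juveniles. RRM2, a subunit of the enzyme that makes DNA building blocks, lay at 0.36 to 0.92 (median 0.73) and 5.72 to 15.7 (median 10.2) at 6 months. It rose by 3.21 ± 0.22, and by 0.90 ± 0.22 in juveniles. SAPCD2, a regulator of spindle orientation, lay at 0.31 to 1.01 (median 0.42) and 3.92 to 8.75 (median 4.91) and rose by 2.58 ± 0.20, against 0.76 ± 0.20 in juveniles. The kinase PIM1, a target of cytokine signals, rose by 1.51 ± 0.13 and 1.57 ± 0.13.

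EDN3, DLL1 and BRINP2 fell at both ages. At 6 months EDN3, an endothelin that guides pigment cells, fell by 1.33 ± 0.22. BRINP2, a neural growth inhibitor, fell by 0.94 ± 0.17 and the Notch ligand DLL1 by 0.89 ± 0.15. FIGF, the growth factor also called VEGFD, fell at 6 months by 1.42 ± 0.22 and was not called in juveniles. In juveniles EDN3, DLL1 and BRINP2 fell by 1.44 ± 0.22, 1.38 ± 0.15 and 1.18 ± 0.17, and the deubiquitinase USP2 by 1.11 ± 0.29. The endothelin EDN1, which constricts vessels, went the other way from EDN3, with rises of 1.31 ± 0.20 and 0.98 ± 0.20.

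Members known for holding the cycle back were mixed as well. The p53-responsive genes CDKN1A, GADD45A and RPRM rose at both ages, while CDKN1B fell at both. RPRM, which arrests cells before mitosis, lay at 5.16 to 10.5 (median 6.97) FPKM in unoperated and 25.4 to 98.4 (median 56.5) in operated 6-month libraries. In juveniles it lay at 3.77 to 13.2 (median 8.15) and 55.1 to 86.1 (median 83.5). The groups were far apart at both ages, with rises of 7.34-fold (2.88 ± 0.27) and 9.55-fold (3.26 ± 0.27), the second being the largest juvenile rise of any member.

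GADD45A, a sensor of DNA damage and stress, lay at 15.4 to 18.7 (median 15.9) and 36.4 to 64.3 (median 51.7) FPKM at 6 months and at 11.1 to 13.99 (median 12.8) and 26.2 to 51.5 (median 40.4) in juveniles. No groups overlapped, and it rose by 1.54 ± 0.13 and 1.56 ± 0.13. CDKN1A encodes the inhibitor p21. Its 6-month levels were 3.17 to 6.18 (median 4.56) and 11.4 to 20.5 (median 15.5), a rise of 1.61 ± 0.29. Unoperated 5-week levels were wider, at 2.88 to 19.98 (median 4.77), with replicate 2 the highest. That library also had the highest summed lens markers, 22000 FPKM, against 3.79 to 3260 in the other 6. Operated juveniles held 8.42 to 18.4 (median 12.4), a rise of 0.96 ± 0.29, and the highest of them, at 18.42 FPKM, was the operated 5-week replicate 1, with a lens sum of 3040. Without the libraries over 1000 FPKM of CRYAA the juvenile rise was 1.47 and that at 6 months 1.45.

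CDKN1B, which encodes the resting-cell inhibitor p27, lay at 42.4 to 49.7 (median 47.8) FPKM in unoperated and 28.2 to 36.5 (median 34.1) in operated 6-month libraries. In juveniles its levels were 33.7 to 43.5 (median 36.8) and 26.2 to 31.99 (median 29.8). Operated libraries lay wholly below unoperated ones at both ages. It fell by 0.50 ± 0.07 and 0.34 ± 0.07. TXNIP, a thioredoxin-binding protein linked to growth restraint and sugar uptake, fell by 1.55 ± 0.11 and 0.92 ± 0.11. Its levels were 233 to 293 (median 264) and 75.4 to 111 (median 90.8) at 6 months and 172 to 275 (median 204) and 86.8 to 132 (median 112) in juveniles, again without overlap.

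CDKN2C, which encodes the inhibitor p18, lay at 9.5 to 12.3 (median 11.9) and 23.6 to 35.7 (median 27.1) FPKM at 6 months and at 12.7 to 22.04 (median 15.5) and 16.3 to 25.2 (median 22.5) in juveniles. It rose by 1.2 ± 0.11 and 0.41 ± 0.11. On a list of inhibitors and arrest genes, 14 of 17 were measured. At 6 months 8 rose and 3 fell, and in juveniles 8 rose and 3 fell, with medians of 0.44 and 0.45. Of all genes 16.0% rose and 30.1% fell at 6 months, and 16.5% and 20.8% in juveniles. On the arrest list, the antiproliferative gene BTG2 rose by 3.10 ± 0.50 and 2.58 ± 0.50 and GADD45G by 2.33 ± 0.29 and 1.85 ± 0.29. The cyclin relatives CCNG1 and CCNG2 fell by 0.52 ± 0.12 and 0.54 ± 0.08 at 6 months.

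**Figure D3:**
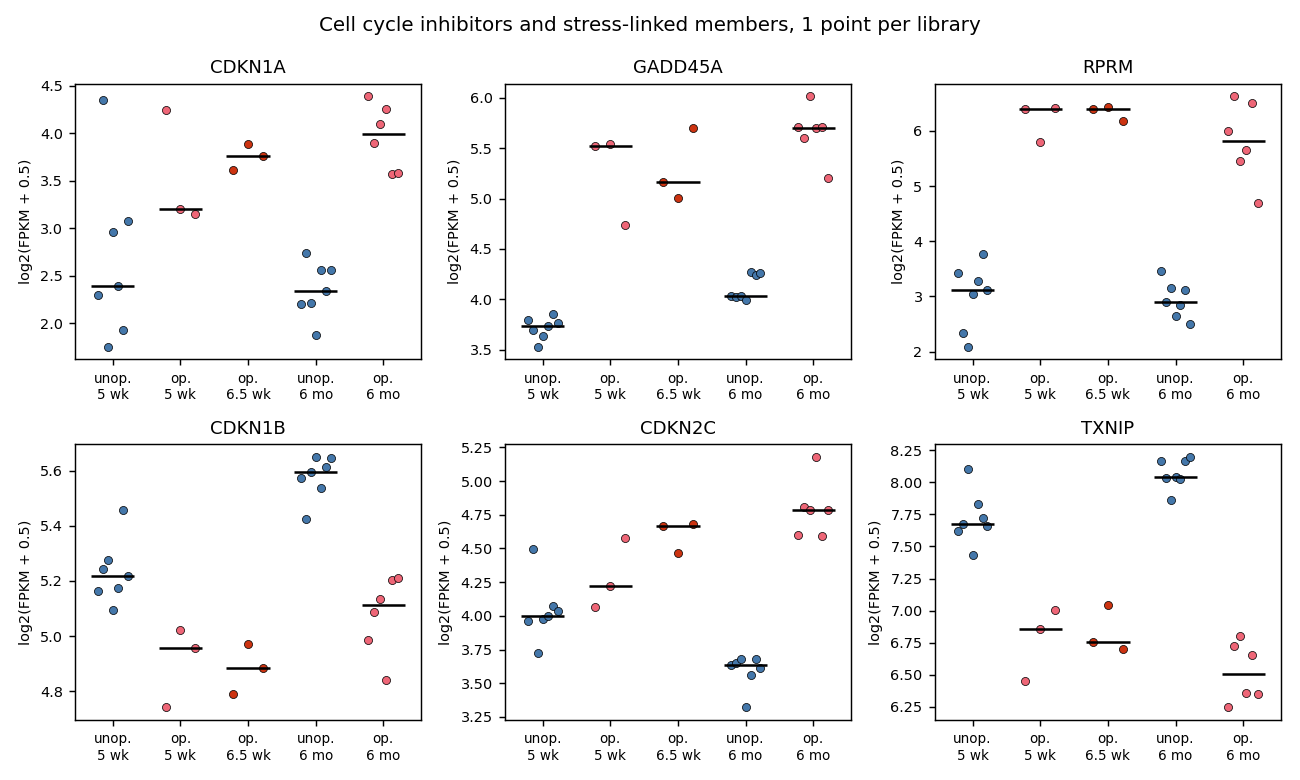
Levels of 6 members linked to arrest or stress on the log2(FPKM + 0.5) scale, 1 point per library and a bar at the group median, for unoperated (blue) and operated (red) eyes. GADD45A and RPRM are higher and TXNIP and CDKN1B lower in every operated library than in the unoperated libraries of the same age, and 1 unoperated 5-week library stands high for CDKN1A.

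In juveniles RPRM, PARP3 and GEM led the rises and EDN3, DLL1 and BRINP2 the falls. Operated juveniles, the mean of the 5-week and 6.5-week groups, differed from unoperated 5-week eyes in 73 members that rose (20.3%) and 57 that fell (15.9%). The operated 6.5-week eyes had no unoperated eyes of their age, so surgery and growth cannot be fully told apart in this comparison. The same holds for the difference between ages, which uses this comparison. Among all genes 16.5% rose and 20.8% fell. Changes of 2-fold or more were 21 rises and 4 falls, against 4.95% and 1.76% of all genes. Among the 335, 64 rose (19.1%) and 57 fell (17.0%), against 14.7% and 21.7% of all genes so listed, and 13 rose by 2-fold or more (3.88%, against 3.21%). Operated libraries lay wholly above unoperated ones for 34 members and below for 24, against 7.83% and 7.87% of all genes. After the first 3, the largest rises were those of AIF1, AURKA, NEK2, PLK2, SPHK1, PIM1 and GADD45A. With equal sums, median-ratio and upper-quartile scaling the split was 54 higher and 114 lower, 80 and 44, and 74 and 56.

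The 6-month and juvenile comparisons share no library. Of the 94 members that rose at 6 months, 62 (66.0%) also rose in juveniles, which is 84.9% of the 73 juvenile rises. Falls were shared by 46 members, 52.9% of the 87 at 6 months and 80.7% of the 57 in juveniles. Over all genes the shares were 74.1% and 71.9% of the rises and 55.1% and 79.7% of the falls, in that order. No member was called in opposite directions. By the test of the difference, UBE2C, CDK1 and RRM2 changed more at 6 months. For PARP3, RPRM, PLK2, RHOB, GADD45A and PIM1 that test was not passed.

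**Figure D4:**
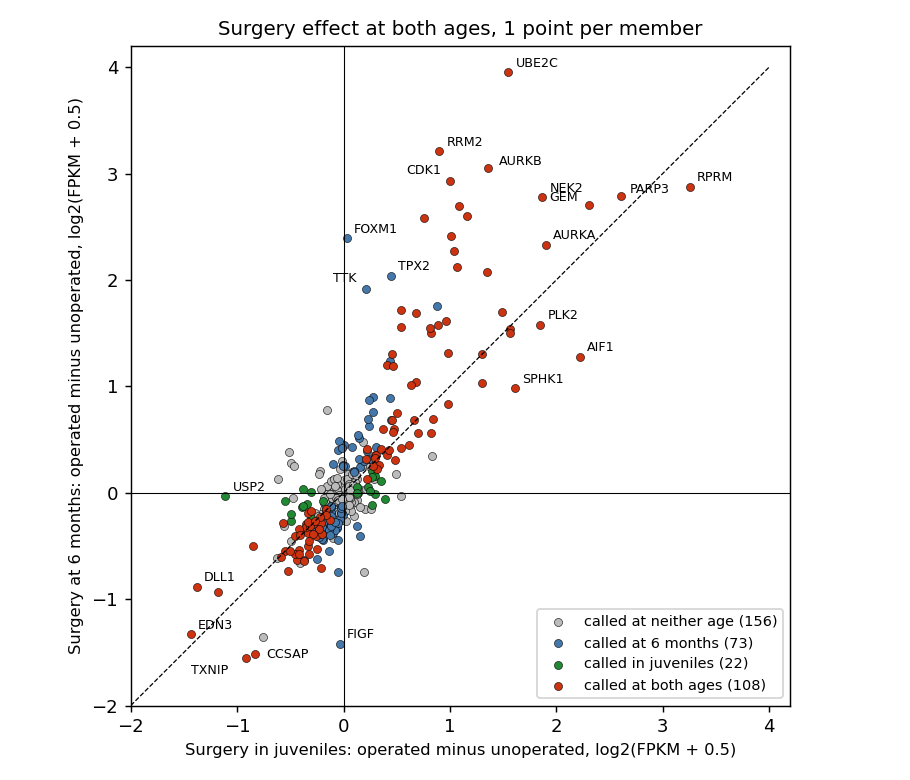
Surgery effect of each member in juveniles (horizontal) and at 6 months (vertical), both as operated minus unoperated on the log2(FPKM + 0.5) scale, coloured by the ages at which it was called. The dashed line marks equal effects. Of 359 members 108 were called at both ages, and UBE2C, RRM2 and CDK1 stand well above the line.

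Without surgery, CDK1, UBE2C, RRM2 and other mitotic genes were lower at 6 months than at 5 weeks. From 5 weeks to 6 months 43 of the 359 members fell and 35 rose, against 9.46% and 11.4% of all genes. A fall of 2-fold or more was found in 12 members and a rise of that size in 1, against 1.14% and 1.07% of all genes. Among the 335, 34 fell (10.1%) and 35 rose (10.4%), against 9.52% and 11.5% of all genes so listed, and 7 fell by 2-fold or more (2.09%, against 1.02%). For 25 members all 6-month libraries lay below and for 14 above the 5-week ones, against 3.98% and 4.26% of all genes. CDK1 fell by 1.75 ± 0.18, UBE2C by 1.86 ± 0.24 and RRM2 by 1.97 ± 0.21, the largest of all. The next were FOXM1, SAPCD2 and TPX2, at -1.69, -1.51 and -1.41, then BUB1B, NDC80, TTK and KIF20A, at -1.40, -1.22, -1.22 and -1.11. Among the markers outside the rule, CCNB1 fell by 1.97 ± 0.20, CCNB2 by 2.06 ± 0.18 and CDC20 by 2.05 ± 0.33.

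The members that rose with age in unoperated eyes were of other kinds. FIGF rose most, by 1.38 ± 0.21, with 1.41 to 2.97 (median 2.19) FPKM at 5 weeks and 4.39 to 8.84 (median 6.38) at 6 months. It was followed by the macrophage gene AIF1 (0.86), the lipid kinase SPHK1 (0.71), the developmental regulator LBH (0.58), the kinase PRKCA (0.57) and annexin ANXA1 (0.53). CDKN1B, the resting-cell inhibitor, rose by 0.34 ± 0.06 and CDKN2C fell by 0.45 ± 0.10. By role, 5 of 13 cyclin and kinase genes and 5 of 13 kinetochore genes fell. So did 6 of 20 mitotic kinases and partners and 4 of 13 condensin and cohesin genes. Over all genes 9.46% fell and 11.4% rose. Members listed through operated groups alone gave 4 of the 5 kinetochore falls and 4 of the 6 falls among mitotic kinases and partners. In these 4 roles the only rise was that of STK4 (0.28, adjusted p = 0.0211). Without the unoperated 6-month replicate 2 it gave 0.25 with adjusted p = 0.0504. In cytokinesis 6 of 28 rose and none fell. Under equal sums, median-ratio and upper-quartile scaling the count of rises in all members dropped to 15, 21 and 19, and that of falls was 64, 54 and 63. Without the 8 crystallin-rich libraries, 3 rose and 11 fell.

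Between operated juveniles and operated 6-month eyes 23 members rose (6.41%) and 25 fell (6.96%), against 5.88% and 9.78% of all genes, and none changed by 2-fold. All 6-month libraries lay above the juvenile ones for 2 members and below for 9, against 1.31% and 3.47% of all genes. CDK1 differed by 0.18 ± 0.20 (95% interval -0.22 to 0.58) and UBE2C by 0.54 ± 0.26 (95% interval -0.003 to 1.086), and neither passed the test. CKS1B rose by 0.53 ± 0.14 and the tubulin TUBA1B by 0.38 ± 0.10. The falls were led by DYNC1H1, the dynein heavy chain (-0.97), SLF1, a DNA repair factor (-0.73), CUL9, a ubiquitin ligase subunit (-0.68), HTT, the huntingtin gene (-0.55), PKD1, a ciliary membrane protein (-0.53), and SON, a splicing cofactor (-0.51). The call of SLF1 was lost without the operated 5-week replicate 2 (-0.66), the operated 6.5-week replicate 2 (-0.62) or the operated 6-month replicate 6 (-0.68). Rises numbered 6 with equal sums, 40 with median-ratio and 16 with upper-quartile scaling, and falls 45, 23 and 27. Rises numbered 8 without the operated 6-month replicate 4, and 15 without the operated 6-month replicate 6 or the operated 6.5-week replicate 1.

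The difference of the surgery effects between ages was tested directly. It was greater at 6 months for 15 members (4.18%) and smaller, or more negative, for 4 (1.11%), against 0.734% and 0.355% of all genes. Among the 335 it was greater for 10 (2.99%) and smaller for 4 (1.19%), against 0.597% and 0.363% of all genes so listed. FOXM1, BUB1B, NDC80, CDCA8 and BUB1 are the 5 listed through operated groups alone. The 15 were UBE2C, FOXM1, RRM2, CDK1, SAPCD2, BUB1B, TPX2, KIF20A, NDC80, CDCA8, NCAPG, BUB1, CKS2, CCNF and CDKN2C. UBE2C gave 2.40 ± 0.36 (adjusted p = 0.000661), RRM2 2.31 ± 0.31 (adjusted p = 0.000153) and CDK1 1.93 ± 0.27 (adjusted p = 0.000196). CCNB1, CCNB2 and CDC20 gave 2.31 ± 0.30, 2.46 ± 0.26 and 2.41 ± 0.49, and also passed.

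The levels of the 15 stand side by side as follows. The middle of their group medians was 2.33 FPKM in unoperated 5-week, 4.74 in operated juvenile, 0.47 in unoperated 6-month and 4.91 in operated 6-month eyes. Their log2 differences between the operated groups of the 2 ages ran from -0.01 to 0.67. Those between the unoperated groups ran from -1.97 to -0.45. Each of the 15 had its lowest group median in unoperated 6-month eyes. For the 4 with a smaller or more negative effect at 6 months, FIGF gave -1.38 ± 0.31, TXNIP -0.63 ± 0.15, FLNA, an actin crosslinker, -0.50 ± 0.11, and HTT -0.46 ± 0.11. FIGF lay at 4.39 to 8.84 FPKM in unoperated 6-month eyes and 1.34 to 3.2 and 1.08 to 4.53 in the operated groups.

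With each of the 26 libraries left out in turn, between 10 and 18 members gave a greater and between 2 and 5 a smaller effect at 6 months. UBE2C, RRM2, CDK1, SAPCD2, BUB1B, TPX2, KIF20A, NDC80, NCAPG, CDKN2C, FIGF and FLNA passed in all 26 runs. The call was lost in 23 runs for CCNF, 20 for HTT, 18 each for CDCA8 and TXNIP, 15 for FOXM1, 4 for BUB1 and 2 for CKS2. In the 18 libraries with at most 1000 FPKM of CRYAA no member passed in limma, where UBE2C gave 2.35 (adjusted p = 0.0841) and CDK1 1.72 (adjusted p = 0.0895).

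**Figure D5:**
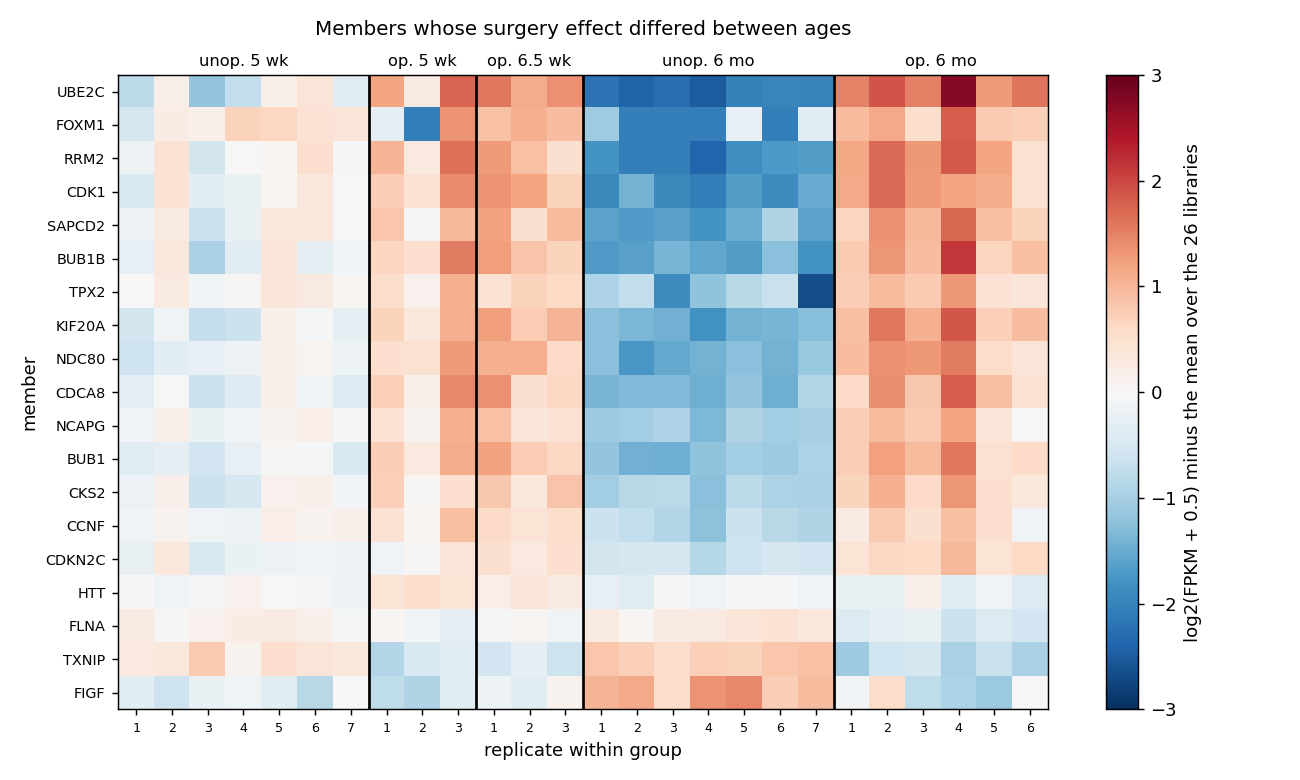
The 19 members whose surgery effect differed between ages, as log2(FPKM + 0.5) minus the gene's mean over the 26 libraries, 1 column per library. In the upper 15 rows the unoperated 6-month group has the lowest median, and operated 6-month replicate 4 is the highest of its group in 14 of these 15 rows.

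Libraries of a group did not contribute equally. Operated 6-month replicate 4 was the highest of its group in 14 of the 15 genes, and operated 5-week replicate 3 in 14 of 15, while operated 5-week replicate 2 was the lowest in 14. The same operated 6-month replicate 4 had the highest summed macrophage markers of its group, 1160 FPKM, and the highest neutrophil sum, 109 FPKM. Operated 5-week replicate 3 had the highest macrophage sum of its group, 1290 FPKM, and a T and NK cell sum of 118 FPKM, against 7.94 and 8.41 in the other 2. Other libraries went the other way. Operated 6.5-week replicate 1 was the highest of its group in 10 of the 15 genes and had its lowest macrophage sum, 530 FPKM. Operated 5-week replicate 2 had a macrophage sum of 577 FPKM, against 541 in replicate 1. The part of these immune cells in the levels of mitotic genes was not tested. Without operated 6-month replicate 4 the 6-month rises of UBE2C and CDK1 were 3.76 and 2.92.

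Between the operated eyes of 6.5 and 5 weeks no member passed the test in limma, and 22 (6.13%) had an unadjusted p under 0.05, against 10.3% of all genes. Of all genes 1 rose and 1 fell (0.00772% each, 0.0154% together). With 3 eyes a side, growth and time since surgery cannot be told apart here.

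Genes of DNA replication, most of them outside the members, were also higher after surgery at 6 months. Of 42 listed genes 35 were measured, and 23 rose (65.7%) and 3 fell (8.57%) at 6 months, with a median of 0.49. Of all genes 16.0% rose and 30.1% fell at that age. In juveniles 10 of the 35 rose and 1 fell, with a median of 0.14, and with age in unoperated eyes 17 fell and none rose. Of all genes 16.5% rose and 20.8% fell in juveniles, and 11.4% rose and 9.46% fell with age in unoperated eyes. TK1, which salvages thymidine for DNA, rose by 2.98 ± 0.21 at 6 months, and the helicase subunits MCM6 and MCM4 by 2.0 ± 0.19 and 1.71 ± 0.15. Of 22 measured genes of the G1 to S step, 7 rose (31.8%) and 3 fell (13.6%) at 6 months. Among the rises were MKI67, the proliferation antigen, at 3.15 ± 0.40, and the transcription factors E2F1 and MYC, at 2.41 ± 0.20 and 2.23 ± 0.17. MKI67 and E2F1 fell short of 1 FPKM in some library of each unoperated group, so they were listed through operated groups alone. Counts over the replication, G1 to S and chromatin lists include such genes and were not split by listing. The counts over the arrest list were not split by listing either. In juveniles 5 of these 22 genes rose and 5 fell, with a median of -0.09, and MYC rose by 1.88 ± 0.17. MKI67 read 0 and 0.32 FPKM in operated 6.5-week replicates 1 and 3, against 0.22 to 3.95 in unoperated 5-week libraries. FOXM1, the factor that switches on late cell cycle genes and a member, rose by 2.39 ± 0.40 at 6 months and was listed at 0 in 4 of 7 unoperated 6-month libraries. Of 9 measured replication-linked chromatin genes, 7 rose and 1 fell, with LMNB1, a nuclear lamin, at 1.39 ± 0.17.

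Markers of other cells changed beside the members. Counts over these lists were not split by listing, and a marker listed through operated groups alone favours a rise. For comparison, 16.0% of all genes rose and 30.1% fell at 6 months, and 16.5% and 20.8% in juveniles. All 15 measured of 20 macrophage markers rose at both ages. Their summed level was 159 to 419 FPKM in unoperated and 477 to 1160 in operated 6-month libraries. In juveniles it was 128 to 286 without and 530 to 1290 with surgery. AIF1 is on that list and a member. Of 7 measured neutrophil markers 6 rose and 1 fell at each age. The epithelial and pigment list fell in 13 of 17 genes at 6 months and 12 of 17 in juveniles, and the smooth muscle list in 6 and 5 of 8. Of 16 measured endothelial markers 11 rose and 1 fell at 6 months and 10 rose and 1 fell in juveniles. Their sum was 318 to 381 FPKM without and 467 to 666 with surgery at 6 months, and 340 to 400 and 529 to 704 in juveniles. All 3 measured B and plasma cell markers rose in juveniles and 1 at 6 months. Fibroblast and stroma markers summed to 5010 to 5690 FPKM in unoperated 5-week and 2900 to 3390 in unoperated 6-month libraries. None of the measured markers of these lists was at 0 throughout a group. The part of a changed cell mix in the member values was not tested.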

How the data were processed

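RNA sequencing of 26 rabbit iris and ciliary body libraries was used; 23 cornea samples were not analysed here. The authors deposited FPKM per transcript for each library, and tools listed in the submitters' processing notes, with no role, are RSEM 1.2.12, Bowtie2 2.2.5, HISAT, and HISAT2 2.0.4. Neither labels nor headers name a genome build or annotation. FPKM was summed per symbol, genes with at least 1 FPKM in 3 libraries were kept (all 12949), and log2(FPKM + 0.5) was fitted in 1 model over the 5 groups with limma 3.58.1 in R 4.3.3, with trend and robust moderation and Benjamini-Hochberg adjustment over all genes. Operated juveniles are the mean of the 5-week and 6.5-week groups. The code was tested on simulated data. The members and lists were chosen with earlier results of these data known. Levels, mostly as group ranges, were given for the 5 markers and for some members of each role. Per role these were up to 4 members with the smallest p for surgery at 6 months and up to 2 with the smallest p for the difference between ages. Differences alone were given for some of the larger rises and falls of each comparison, not for all of them. Other members named were chosen after their values were seen. Other scalings, pseudocounts, filters and left-out libraries were tried.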

Additional observations from a re-analysis of the deposited data

Results flagged for a closer look

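The surgery effect differed between ages, by the limma test of the difference, for 19 members. The log2 difference, 6 months minus juvenile, was 2.40 for UBE2C, 2.36 for FOXM1, 2.31 for RRM2, 1.93 for CDK1 and 1.82 for SAPCD2. It was 1.61 for BUB1B, 1.59 for TPX2, 1.44 for KIF20A, 1.4 for NDC80 and 1.24 for CDCA8. It was 1.17 for NCAPG, 1.05 for BUB1, 1.01 for CKS2, 0.85 for CCNF and 0.79 for CDKN2C. It was -1.38 for FIGF, -0.63 for TXNIP, -0.50 for FLNA and -0.46 for HTT.

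A single library stood far from the rest of its group in 14 of 135 groups of levels checked. Chance gives about 1 in 20 for independent groups. These came from 45 genes read in the same libraries and are not independent, so the 2 rates cannot be compared. Operated 6-month replicate 4 was the far one for UBE2C (39.6 FPKM), BUB1B (7.09), AURKB (8.15), CKS1B (66.1), CDKN2C (35.7) and NCAPD2 (7.82), and replicate 3 of that group for GEM (58.5). In unoperated 6-month eyes replicate 4 stood apart for KIF20A (0.55) and CDKN2C (9.5), replicate 5 for AURKB (0.35), and replicate 6 for SAPCD2 (1.01) and NCAPD2 (4.64). In unoperated 5-week eyes replicate 2 stood apart for CDKN1A (19.98) and CDKN2C (22.04).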

How the results depend on the processing

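Counts of members depended on the scaling, as given with each comparison. With equal sums 151 members fell at 6 months and 114 in juveniles, 15 rose with age in unoperated eyes, and 6 rose and 45 fell with age in operated eyes. Median-ratio scaling gave 54 falls at 6 months, 21 and 40 rises with age in unoperated and operated eyes, and 2 smaller effects at 6 months. Upper-quartile scaling gave 19 rises with age in unoperated eyes. Among genes with a mean of at least 5 FPKM, 55 members rose at 6 months, 21 fell with age in unoperated eyes, and 6 had a greater and 1 a smaller effect at 6 months. With the operated 5-week eyes alone, 36 fell in juveniles, 13 rose with age in operated eyes and 0 had a smaller effect at 6 months. With the operated 6.5-week eyes alone, 13 rose and 15 fell with age in operated eyes and 9 had a greater effect at 6 months. Without libraries over 1000 FPKM of CRYAA, 30 fell in juveniles, 3 rose and 11 fell with age in unoperated eyes, 12 rose with age in operated eyes, and 0 had a greater or smaller effect. Fitting the compared groups alone gave 57 rises with age in unoperated eyes, and 1 rise and 12 falls in operated eyes. Without the late-numbered 5-week samples 2 had a smaller effect at 6 months. The cause of these shifts was not tested.

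With 1 library left out, members that rose and fell numbered 81 to 93 and 69 to 88 at 6 months, 62 to 76 and 47 to 65 in juveniles, 24 to 37 and 37 to 45 with age in unoperated eyes, and 8 to 26 and 18 to 33 in operated eyes. Greater effects at 6 months numbered 10 to 18 and smaller ones 2 to 5, and between 6.5 and 5 weeks 0 to 1 rose and 0 to 1 fell. The direction turned for the uncalled 6-month values of SEPT9 with equal sums (-0.038), of RAD21 with median-ratio scaling (0, to 3 decimals) and of WEE1 with median-ratio scaling (0.016) or the highest transcript alone (0.19). The text "cell division" alone gave 101 members. No paired analysis was possible because the labels give each iris library a number of its own, and the replicate numbers used here only name libraries in accession order. The promoter motif share was not run, since no sequence was at hand. Depth is unknown, so low levels carry no counting interval.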
